A study of Homo sapiens with 6 samples.

Results

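The mRNAs of cyclins, cyclin-dependent kinases (CDKs) and other cell-cycle regulators were followed in RNA that came down with ORC1, the largest protein of the complex that marks replication origins and loads the replicative helicase there. Members were the 56 genes of a list of cell-cycle regulators whose symbols were found in the deposited gene table, out of 23013 genes in that table. All 56 had a mean of at least 10 normalised counts and were among the 16513 genes tested. Native RNA immunoprecipitation and sequencing (RIP-seq) recovers a protein from a lysate with an antibody and without crosslinking, followed by sequencing of the RNA bound to it. All 6 libraries came from nuclei of untreated HCT116 cells, an established human colorectal cancer cell line grown in RPMI medium, and carried no transgene by their labels. The 3 inputs were made without antibody and the 3 ORC1 IPs with an antibody against ORC1 from the laboratory of Bruce Stillman. The cells were asynchronous, so each library averages over cells in all cell-cycle stages.

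Cyclins are regulatory subunits that switch on their CDK partners and drive the cell from G1 through S phase into mitosis. CDK inhibitors and inhibitory kinases hold these complexes back, CDC25 phosphatases release them, and the ubiquitin ligases APC/C and SCF destroy cyclins and inhibitors at set points of the cycle. E2F transcription factors, restrained by RB and its relatives, set the transcription of many of these genes, and a separate branch of the CDK family acts on RNA polymerase II and splicing rather than on the cell cycle.

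Recovered reads on genes ranged from 13703033 to 17248924 in the inputs and from 25134156 to 36008733 in the ORC1 IPs. ORC1 IP replicate 2 stood apart from the other IPs: its log2 values correlated with those of ORC1 IPs 1 and 3 with Pearson's r of 0.902 and 0.920 across genes, against 0.958 between ORC1 IPs 1 and 3. The highest correlation of ORC1 IP 2 was with input 1, at 0.941, whereas it had 0.879 with input 2 and 0.892 with input 3. Results are therefore also given without ORC1 IP 2. Of the epithelial markers EPCAM, CDH1, KRT8, KRT18, KRT19, VIL1, CDX2 and LGALS4, 7 of 8 were in the table, and their normalised counts summed to 47785 to 138549 in the inputs and to 16799 to 145253 in the ORC1 IPs, the lowest in ORC1 IP 2. VIL1 was close to 0 in every library. Leukocyte markers summed to at most 5.81 (1 of 5 in the table) and endothelial markers to at most 64.1 (2 of 4), whereas fibroblast markers (2 of 5), nearly all COL1A1, summed to 165 to 306 in inputs and 435 to 797 in ORC1 IPs. The part of these markers in the results was not tested. The study reported that its control IgG brought down no RNA that could be detected. No library from a control antibody was analysed here, so RNA that comes down without ORC1 could not be measured per gene.

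The first question was whether cell-cycle mRNAs as a list were higher or lower in the ORC1 IP than in the input. No member passed an adjusted p of 0.05 in either direction (limma, Benjamini-Hochberg over all tested genes), against 2.28% of all tested genes called higher and 1.42% called lower. The smallest adjusted p among the members was 0.064, that of CDK13. With an unadjusted p under 0.05 there were 6 members with higher values in the ORC1 IP (CDK13, CDK11A, CDK11B, E2F7, CCNE2 and RBL1), which is 10.7% of the list, beside 12.2% of all tested genes. Another 5 members passed in the lower direction (SKP2, CDK4, CKS2, CKS1B and CCND3), which is 8.93% of the list, beside 9.45% of all tested genes. Members thus passed no more often than genes in general. These are bulk libraries, each scaled by a factor of its own. A fold change here is the level in the ORC1 IP relative to that in the input. Fewer cells of a type and less RNA per cell cannot be told apart in such libraries.

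The median log2 fold change of the members, ORC1 IP over input on the log2(normalised count + 1) scale, was -0.08, beside 0.01 over all tested genes. Of the 56 members, 25 had a positive and 31 a negative value. Taken one ORC1 IP library at a time against the mean of the inputs, the members' median difference was 0.14 in ORC1 IP 1, -0.34 in ORC1 IP 2 and 0.08 in ORC1 IP 3. Over all tested genes the medians were -0.01, -0.02 and 0.07 in the same order. The sign of the list's median thus rested on ORC1 IP 2. Without that library the members' median was 0.14, beside 0.02 over all tested genes. All 3 ORC1 IPs lay above all 3 inputs in 8 members, 14.3% of the list, beside 12.7% of all tested genes: E2F8, CDC16, E2F3, RBL1, E2F7, TFDP1, CDK11A and CDK13. All 3 ORC1 IPs lay below all 3 inputs in 10 members, 17.9% of the list, beside 13.5% of all tested genes: SKP2, CDK4, CDC20, CKS2, CKS1B, CCND3, CDK1, CCNA2, CDKN2C and CDK2. In the remaining 38 members the groups overlapped.

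**Figure D1:**
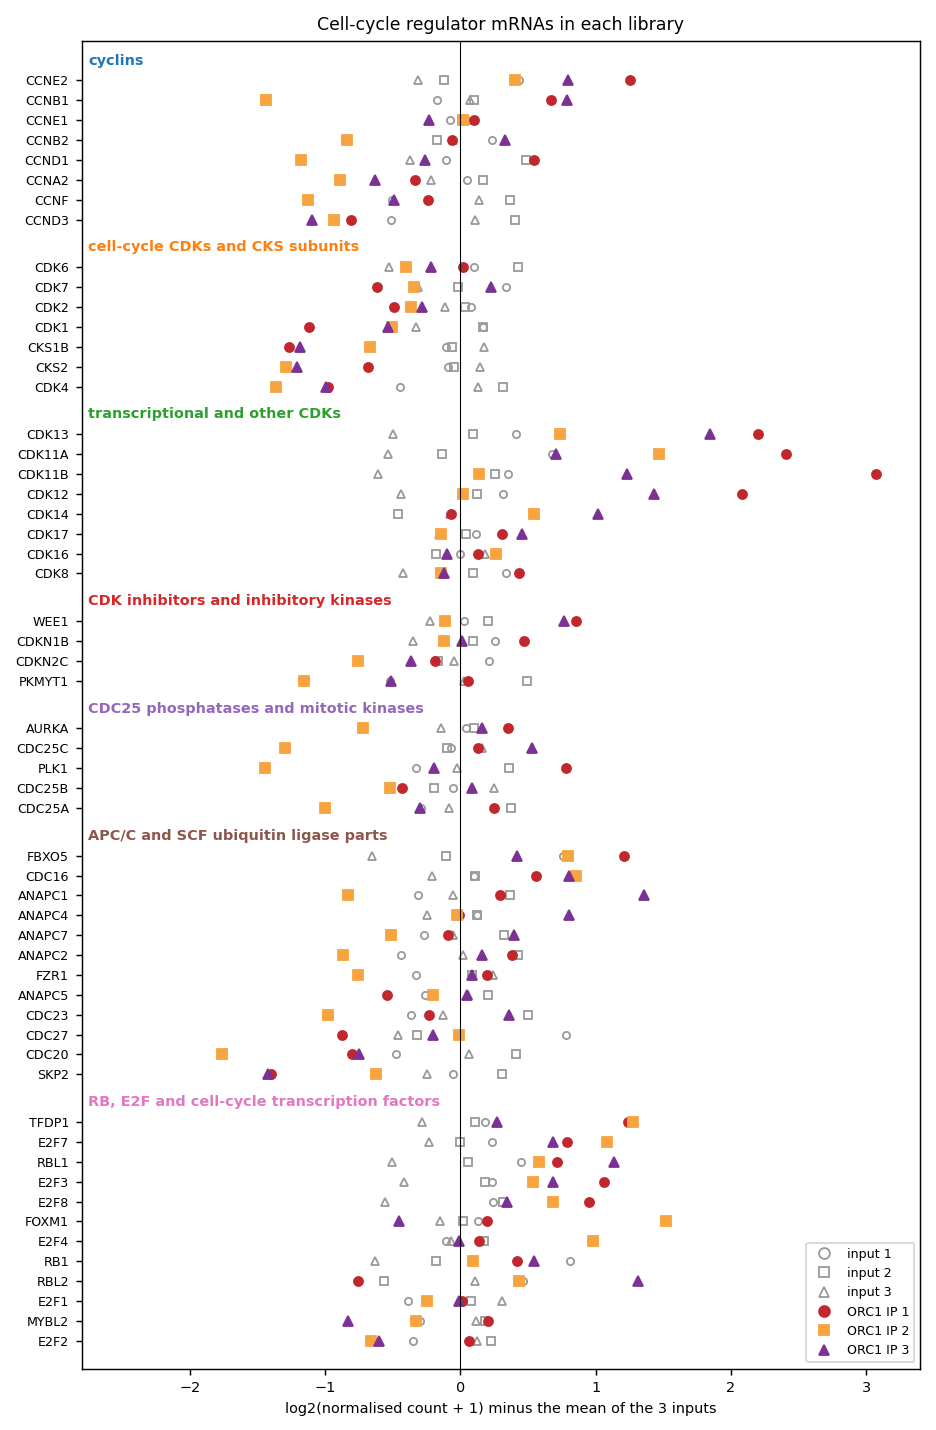
Difference of each ORC1 IP library from the mean of the 3 inputs (filled symbols, horizontal axis, log2 scale) for the 56 cell-cycle mRNAs, grouped by role, with the inputs themselves as open grey symbols. In 5 of the 7 cell-cycle CDKs and CKS subunits every ORC1 IP lies left of every input, beside 13.5% of all tested genes. In 21 members the orange square of ORC1 IP 2 is the leftmost symbol. That count was not made over all tested genes.

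As a share of all normalised counts, the 56 mRNAs made up 0.680%, 0.703% and 0.640% of inputs 1, 2 and 3 and 0.527%, 0.676% and 0.502% of ORC1 IPs 1, 2 and 3. ORC1 IPs 1 and 3 were thus below every input, and ORC1 IP 2 lay among the inputs. The median differences above went the other way, at 0.14, -0.34 and 0.08 in ORC1 IPs 1, 2 and 3. A share is taken of the total of its own library, and the median difference is not. A lower share thus does not mean lower normalised counts of most members, and the reason for the contrast was not tested. The mean share was 0.674% ± 0.0319 (SD, n = 3) in inputs and 0.568% ± 0.0941 (SD, n = 3) in ORC1 IPs. The difference was -0.106 percentage points, larger in size than either SD, but the groups overlapped through ORC1 IP 2. A two-sided exact permutation test gave p = 0.2 (n = 3, where 0.1 is the smallest p that 3 against 3 allows). With so few libraries this test cannot decide whether the shares differ. Without ORC1 IP 2 the difference was -0.160 percentage points (exact permutation test, p = 0.1, the smallest p that 3 against 2 allows). Levels per kb of transcript in the inputs spanned from 7357 normalised counts per kb for CDC20 to 6.25 for CDK11A, with a median of 496 over the members.

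The study found tandem GAA repeats enriched in RNAs that come down with ORC1, and concluded that ORC1 does not bind RNA through them. Single GAA triplets, as counted here, are a different and looser measure. For the 4 most positive and the 4 most negative members by log2 fold change, the 60-base stretch of coding sequence with the most GAA triplets is shown here, to let the reader see what such a stretch looks like on both sides of the fold-change range. Sequences are those of GENCODE v44 transcripts (GRCh38), 5′ to 3′ in the sense direction, with each GAA in capitals. The first 3 lines belong to CDKs with positive fold changes, where the CDK11A stretch was letter for letter that of CDK11B and is not repeated, and the last 4 to genes with negative ones.
CDK13: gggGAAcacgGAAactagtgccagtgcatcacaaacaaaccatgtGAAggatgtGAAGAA
CDK12: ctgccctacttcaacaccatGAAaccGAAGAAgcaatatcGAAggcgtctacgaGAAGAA
CDK11B: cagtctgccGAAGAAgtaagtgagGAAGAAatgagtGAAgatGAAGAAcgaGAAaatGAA
SKP2: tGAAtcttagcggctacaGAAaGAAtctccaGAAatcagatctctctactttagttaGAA
CDK4: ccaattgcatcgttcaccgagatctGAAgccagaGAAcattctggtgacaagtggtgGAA
CDC20: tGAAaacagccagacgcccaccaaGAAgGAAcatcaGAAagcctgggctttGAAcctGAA
CKS2: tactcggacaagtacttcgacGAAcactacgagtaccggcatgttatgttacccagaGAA

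These stretches held 9 GAA triplets in CDK11B, 6 each in CDK12 and CDC20, 5 each in CDK13 and SKP2, 3 in CDK4 and 2 in CKS2. SKP2, with the most negative fold change of the list, thus had as many in its densest stretch as CDK13, with the most positive one, and CDC20 as many as CDK12.

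The transcriptional and other CDKs held the largest positive values of the list. All 8 had positive log2 fold changes, from 0.06 to 1.59 with a median of 0.84, and none passed the adjusted threshold in the test on all 6 libraries. CDK13 (ENSG00000065883, chr7:39950121-40099580, plus strand, 14 exons), a kinase that pairs with cyclin K and phosphorylates RNA polymerase II, had 1132, 908 and 601 normalised counts in the input libraries 1 to 3, and 3922, 1417 and 3059 in the ORC1 IP libraries 1 to 3. Library values below follow the same order of replicates. Every ORC1 IP was above every input, with ORC1 IP 2 nearest to the inputs. Its mean was 880.5 ± 266 (SD, n = 3) in inputs and 2799 ± 1273 (SD, n = 3) in ORC1 IPs, with a log2 fold change of 1.59 ± 0.44 (SE) and an adjusted p of 0.064 (limma).

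CDK12 (ENSG00000167258, chr17:39461486-39567559, plus strand), the close relative of CDK13 and also a partner of cyclin K, is shown in full because its call depended on a single library. It had 3589, 3138 and 2123 normalised counts in inputs, against 12193, 2916 and 7749 in ORC1 IPs. ORC1 IPs 1 and 3 were above all inputs and ORC1 IP 2 lay between inputs 2 and 3. Its log2 fold change was 1.18 ± 0.56 (SE, adjusted p = 0.243, limma), and 1.75 ± 0.38 without ORC1 IP 2 (adjusted p = 0.00626).

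CDK11A and CDK11B are neighbouring copies on chromosome 1 that encode nearly the same kinase, linked to transcription and splicing. CDK11B (ENSG00000248333, chr1:1635225-1659012, minus strand) had 405, 379.8 and 207 normalised counts in inputs, against 2675, 349.5 and 747 in ORC1 IPs. ORC1 IPs 1 and 3 lay above all inputs and ORC1 IP 2 lay among them. This gave a log2 fold change of 1.48 ± 0.60 (SE, adjusted p = 0.174, limma).

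CDK11A (ENSG00000008128, chr1:1702379-1724357, minus strand) was far lower, with 28.5, 15.8 and 11.7 normalised counts in inputs, against 96.7, 49.9 and 29.1 in ORC1 IPs. All ORC1 IPs were above all inputs, ORC1 IP 3 only just. The log2 fold change was 1.53 ± 0.58 (SE, adjusted p = 0.149, limma). Counts of this pair are uncertain, because 86.6% of the 50-base stretches of the CDK11A transcript and 64.2% of those of the CDK11B transcript also occur in other genes, and the handling of reads with several matches was not given in the sources used here. CDK11A made up 3.49% to 6.57% of the summed counts of the pair in 5 libraries and 12.5% in ORC1 IP 2. The sum of both, which does not depend on how reads were split within the pair, had a log2 fold change of 1.5. A further annotated gene also overlaps 76.2% of the exonic length of CDK11A on the same strand.

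The other 4 genes of this group had smaller values. CDK14, CDK17, CDK16 and CDK8 had log2 fold changes of 0.50, 0.21, 0.10 and 0.06. For CDK8, a kinase of the Mediator complex, the 95% interval ran from -0.72 to 0.83, for CDK16 from -0.72 to 0.92 and for CDK17 from -0.52 to 0.93, so that a change of 2 times up or down lay outside all 3 intervals. With scaling by total count these 3 turned negative, and 5 of 8 fold changes of the group stayed positive.

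**Figure D2:**
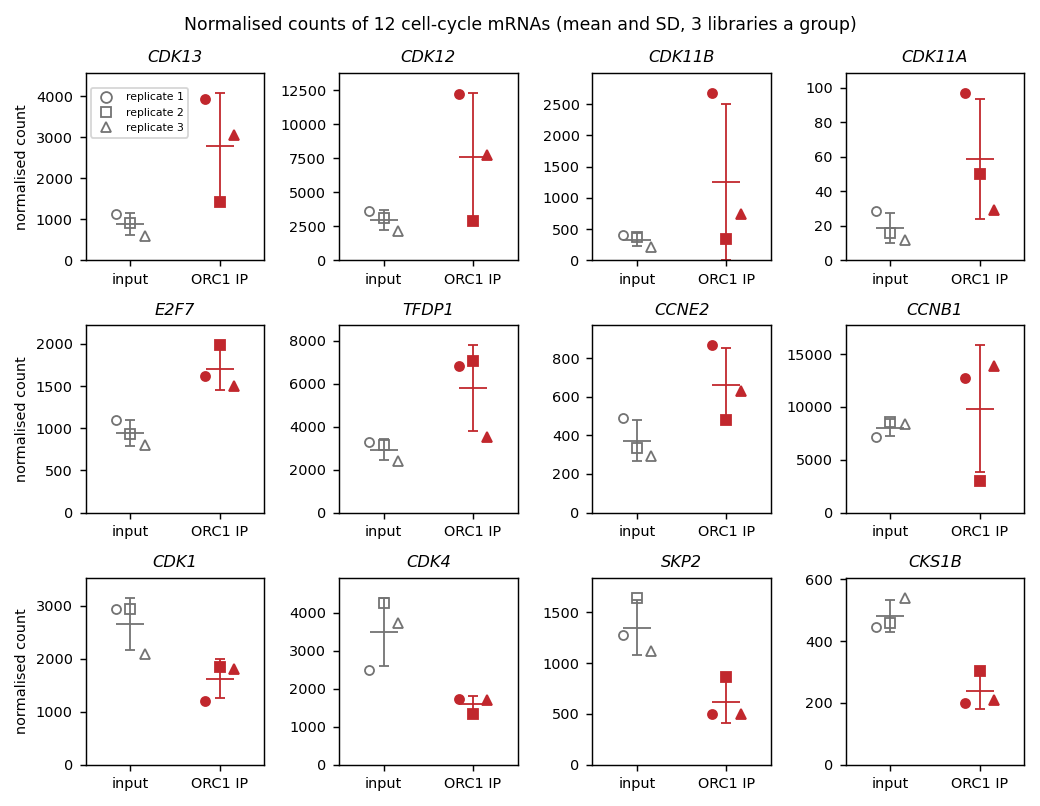
Normalised counts (vertical axis, from 0) of 12 cell-cycle mRNAs in the 3 inputs (open grey symbols) and 3 ORC1 IPs (filled red symbols). Symbols mark the replicate number and bars the mean and SD. ORC1 IP 2 lies with or below the inputs for CDK12, CDK11B and CCNB1, and all ORC1 IPs lie below all inputs for CDK1, CDK4, SKP2 and CKS1B.

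The CDKs of the cell cycle itself and their small CKS subunits had the opposite sign. All 7 log2 fold changes were negative, from -0.20 to -1.11 with a median of -0.72. In 5 of the 7, 71.4% of the group, every ORC1 IP was below every input, beside 13.5% of all tested genes. Whether these 7 genes differ from genes in general was not tested. Their signs were the same under all scalings tried, and leaving out input replicate 2 turned 1 of them, CDK6, to 0.01. None passed the adjusted threshold in the test on all 6 libraries.

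CDK4 (ENSG00000135446, chr12:57747727-57756013, minus strand), the G1 kinase that works with D-type cyclins, had 2495, 4249 and 3732 normalised counts in inputs, against 1728, 1323 and 1708 in ORC1 IPs. The groups did not overlap. The mean was 3492 ± 901 for inputs, against 1587 ± 228 for ORC1 IPs (SD, n = 3 each), and the log2 fold change was -1.11 ± 0.39 (SE, adjusted p = 0.12, limma). The annotated CDK4 gene overlaps TSPAN31 on the opposite strand over 57.8% of its exonic length, and the strand setting of the counting was not stated.

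CDK1 (ENSG00000170312, chr10:60778331-60794852, plus strand), the kinase that drives entry into mitosis, had 2939.6, 2942 and 2088 normalised counts in inputs, against 1206, 1851 and 1811 in ORC1 IPs. Every ORC1 IP was below every input. CDK1 had a log2 fold change of -0.72 ± 0.38 (SE, adjusted p = 0.299, limma). CDK2, the kinase partner of cyclins E and A, had -0.38 with no overlap between the groups, while CDK7 and CDK6 had -0.24 and -0.20 with overlap. CDK7 was counted in this group, although CCNH, its cyclin, is given below with the cyclins of transcriptional CDKs.

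CKS1B and CKS2 encode small proteins that bind CDKs and help them recognise substrates. Both are given in full because an alternative test called them. CKS1B (ENSG00000173207, chr1:154974653-154979251) had 445, 459 and 541 normalised counts in inputs, against 199, 302 and 211 in ORC1 IPs, with a log2 fold change of -1.04 ± 0.35 (SE, adjusted p = 0.108, limma). CKS2 (ENSG00000123975, chr9:89311195-89316703) had 1745, 1799.8 and 2058 in inputs and 1162, 762 and 808 in ORC1 IPs, with a log2 fold change of -1.06 ± 0.35 (SE, adjusted p = 0.105, limma). Neither gene had an ORC1 IP within the range of the inputs. Of the CKS1B transcript, 25.5% of the 50-base stretches occur in other genes as well.

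Cyclins were divided. Of 8, CCNE2 and CCNB1 had positive values and 6 had negative ones, with a median log2 fold change of -0.24 that became 0.04 without ORC1 IP 2. CCNE2 (ENSG00000175305), one of the E-type cyclins of the G1/S transition, had 492, 334 and 291 normalised counts in inputs, against 866, 481 and 630.5 in ORC1 IPs. ORC1 IP 2 lay just under input 1, and the other ORC1 IPs were above all inputs. Its log2 fold change was 0.82 ± 0.37 (SE, adjusted p = 0.222, limma). Genes on the opposite strand, INTS8 and ENSG00000272509, together overlap 57.1% of the exonic length of CCNE2. The other E-type cyclin, CCNE1 (ENSG00000105173, chr19:29811991-29824312), had 803, 854 and 879.9 in inputs and 905, 858 and 721 in ORC1 IPs. These values overlapped fully, and the log2 fold change of -0.04 had a 95% interval from -0.74 to 0.67.

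CCND3 (ENSG00000112576, chr6:41934934-42050357, minus strand), a D-type cyclin and partner of CDK4 and CDK6, had 838, 1578 and 1288 normalised counts in inputs, against 680.5, 626 and 557 in ORC1 IPs. All ORC1 IPs were below all inputs, with a log2 fold change of -0.95 ± 0.36 (SE, adjusted p = 0.145, limma). CCND1 was the most abundant member by counts per gene, and its ORC1 IPs ranged from 6779 to 22348, so its log2 fold change of -0.30 had an SE of 0.69. CCNF and CCNA2 both had -0.62 and CCNB2 had -0.19.

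CCNB1 (ENSG00000134057, chr5:69167135-69178245, plus strand), the mitotic cyclin that activates CDK1, differed in direction between ORC1 IP libraries. It had 7120.1, 8566 and 8420.2 normalised counts in inputs, against 12719.6, 2964 and 13839 in ORC1 IPs. ORC1 IPs 1 and 3 were above every input and ORC1 IP 2 was below every input. The log2 fold change was 0.01 ± 0.65 (SE, adjusted p = 0.996, limma), with a 95% interval from -1.40 to 1.41, and 0.73 ± 0.36 without ORC1 IP 2 (adjusted p = 0.178). CCNB1 and its kinase CDK1 therefore did not share a pattern over the ORC1 IPs.

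Among CDK inhibitors and inhibitory kinases, 2 of 4 values were positive and none had an unadjusted p under 0.05. Their median of -0.16 became 0.01 without ORC1 IP 2. WEE1 (ENSG00000166483, chr11:9573670-9593457), which holds CDK1 inactive by phosphorylation, had 1711, 1932 and 1435 normalised counts in inputs, against 3035, 1552 and 2851 in ORC1 IPs. ORC1 IP 2 lay among the inputs and the others above them, with a log2 fold change of 0.50 ± 0.40 (SE, adjusted p = 0.502, limma). PKMYT1 (ENSG00000127564, chr16:2968024-2980479), the second kinase with this role, had 1561, 3161 and 2283 in inputs and 2330.4, 1007 and 1570.3 in ORC1 IPs. Its groups overlapped, with ORC1 IP 2 below all inputs, and the log2 fold change was -0.54 ± 0.43 (SE, adjusted p = 0.509, limma). CDKN1B, which encodes the inhibitor p27, had 0.12 and CDKN2C, an inhibitor of CDK4 and CDK6, had -0.44.

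All 5 CDC25 phosphatases and mitotic kinases had negative values, from -0.07 to -0.35, and in all 5 ORC1 IP 2 was the lowest of the 6 libraries. Without ORC1 IP 2 the group's median went from -0.29 to 0.25, with 3 of 5 positive. CDC25A (ENSG00000164045, chr3:48157146-48188417), which removes the inhibitory phosphates from CDK2 and CDK1, had 1238, 1957 and 1429.9 normalised counts in inputs, against 1799.7, 756 and 1230.4 in ORC1 IPs. ORC1 IP 1 lay within the inputs, ORC1 IP 3 just below them and ORC1 IP 2 well below. The log2 fold change was -0.35 ± 0.40 (SE, adjusted p = 0.666, limma). PLK1, a kinase of mitotic entry and spindle assembly, ranged from 1899 in ORC1 IP 2 to 8875 in ORC1 IP 1, wider than the inputs at 4106 to 6630.2. AURKA, a spindle kinase, had 2651 and 2318 in ORC1 IPs 1 and 3, above all inputs at 1882 to 2228, and 1265 in ORC1 IP 2, below them.

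Of the 12 parts of the APC/C and SCF ubiquitin ligases, 4 had positive and 8 negative values, with a median of -0.13. This direction rested on single libraries, since the median was 0.14 with 8 positive without ORC1 IP 2, and 0.03 with 6 positive without input 2. SKP2 (ENSG00000145604, chr5:36151989-36196849, plus strand), the SCF receptor that marks p27 for destruction together with CKS1B, had 1278, 1642 and 1119 normalised counts in inputs, against 503, 861 and 496 in ORC1 IPs. Every ORC1 IP was below every input. Its mean was 1346 ± 268 (SD, n = 3) in inputs and 619.9 ± 209 (SD, n = 3) in ORC1 IPs, with the most negative log2 fold change of the list, -1.15 ± 0.36 (SE, adjusted p = 0.0942, limma). FBXO5 (ENSG00000112029, chr6:152970519-152983579), an inhibitor of the APC/C, had 1340.0, 736 and 504 in inputs and 1832, 1377 and 1061 in ORC1 IPs. Input 1 reached into the range of the ORC1 IPs, and the log2 fold change was 0.81 ± 0.42 (SE, adjusted p = 0.287, limma).

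The APC/C activators CDC20 and FZR1 had log2 fold changes of -1.10 and -0.16. For CDC20 all ORC1 IPs, at 3473 to 6997 normalised counts, were below all inputs, at 8477 to 15628. Core APC/C subunits went from 0.74 for CDC16, whose ORC1 IPs at 1661 to 2036 were all above the inputs at 977 to 1215, down to -0.36 for CDC27. ANAPC1 had 1855, 852 and 3871 in ORC1 IPs 1, 2 and 3, which straddled its inputs at 1219 to 1946, and 52.3% of the 50-base stretches of its transcript occur in other genes.

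RB, E2F and the other transcription factors leaned to positive values, with 9 of 12 above 0 and a median of 0.40. In 5 of the 12, 41.7% of the group, every ORC1 IP was above every input, beside 12.7% of all tested genes. Whether these 12 genes differ from genes in general was not tested. The median kept its sign under all scalings and was 0.38 without ORC1 IP 2. TFDP1 (ENSG00000198176, chr13:113584721-113641473, plus strand), the dimer partner of E2F factors, had 3283, 3125 and 2377 normalised counts in inputs, against 6836, 7031 and 3496 in ORC1 IPs. All ORC1 IPs were above all inputs, ORC1 IP 3 by little, and the log2 fold change was 0.93 ± 0.46 (SE, adjusted p = 0.262, limma). E2F2 (ENSG00000007968, chr1:23506438-23531233), an activating E2F, had 2035, 3039 and 2816 in inputs and 2708, 1637 and 1711 in ORC1 IPs. ORC1 IPs 2 and 3 were below all inputs and ORC1 IP 1 lay among them, with a log2 fold change of -0.40 ± 0.39 (SE, adjusted p = 0.603, limma).

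Within the E2F family the repressors E2F7 and E2F8 had 0.85 and 0.66, and the activators E2F3 and E2F1 had 0.76 and -0.08. E2F7 had no overlap between the groups, with 1617, 1980.4 and 1502 normalised counts in ORC1 IPs against 1098, 931 and 796 in inputs and an adjusted p of 0.170 (limma). The RB relative RBL1 had 0.81, RBL2 had 0.33 and RB1 had 0.35. FOXM1, a factor for mitotic genes, had 6039.8 in ORC1 IP 2 alone, with 2406 and 1533 in the other ORC1 IPs and 1893 to 2303 in inputs. Its log2 fold change of 0.42 became -0.13 without that library.

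How far ORC1 IP 2 differed from its fellows was then counted over the list. It was the lowest of all 6 libraries in 21 members and the highest in 6 (CDK16, E2F4, FOXM1, CDC16, E2F7 and TFDP1). By the same count ORC1 IP 1 was lowest in 7 and highest in 16 members, and ORC1 IP 3 lowest in 5 and highest in 10. The matching counts over all tested genes were not made. These counts therefore do not show whether the pattern is particular to this list. Without ORC1 IP 2, 46 members kept the sign of their fold change.

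Leaving out that library also brought calls. Among members, 3 were higher in the ORC1 IP (limma): CDK13 at 2.02 ± 0.36 (adjusted p = 0.00205), CDK12, and CDK11B at 2.15 ± 0.48 (adjusted p = 0.00813). Another 2 were lower: SKP2 at -1.41 ± 0.33 (adjusted p = 0.00958) and CKS1B at -1.22 ± 0.34 (adjusted p = 0.0220). These were 5.36% and 3.57% of the members, and the same fit called 11.9% of all tested genes higher and 6.38% lower. DESeq2 on the recovered reads of all 6 libraries called CDK13 (adjusted p = 0.00815) and CDK11B (0.0253) higher and CDK4 (0.0330) and CKS2 (0.0484) lower, beside 7.67% and 4.35% of the 16501 genes with an adjusted p. CDK13 and CDK11B were the members called in both. With edgeR on the recovered reads no member was called. There 13 members had an unadjusted p under 0.05, and the matching share of all genes was not counted.

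**Figure D3:**
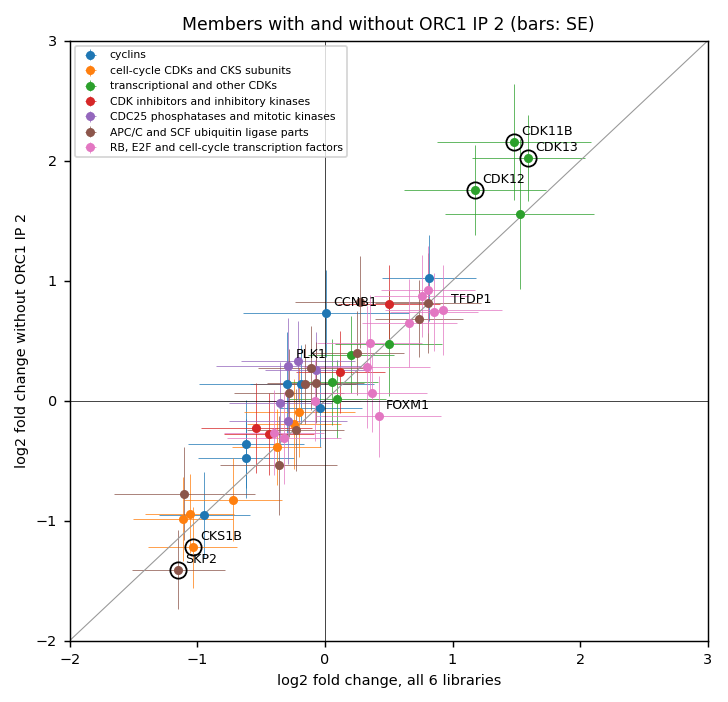
Log2 fold change, ORC1 IP over input, of the 56 members with all 6 libraries (horizontal axis) and without ORC1 IP replicate 2 (vertical axis), coloured by role, with SE bars and a diagonal of equal values. Black circles mark the 5 members called without ORC1 IP 2. CDK13, CDK12 and CDK11B lie above the diagonal at 2.02, 1.75 and 2.15 without ORC1 IP 2, and SKP2 and CKS1B lie below it.

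Precision limited what could be said of most single genes. In 48 of 56 members the 95% interval of the log2 fold change reached beyond 1 or -1. In the other 8 (E2F1, ANAPC7, AURKA, CCNE1, CDK8, CDK16, CDKN1B and CDK17) it lay within those bounds.

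Transcript length and GAA content were then set beside the fold changes. All 56 members had a GENCODE v44 transcript, and their log2 fold change correlated with transcript length with a Spearman rho of 0.40 across the members, beside 0.35 across 16062 tested genes with a transcript. The 14 shortest members, of 616 to 2061 bases, had a median log2 fold change of -0.49 with 2 positive. The 14 longest, of 4238 to 11663 bases, had 0.34 with 9 positive, and the middle 28 had -0.01 with 14 positive. Without ORC1 IP 2 these medians were -0.25 with 4 positive, 0.48 with 11 positive and 0.15 with 18 positive, in the same order. Long transcripts with high values included CDK13 at 9525 bases and CDK12 at 8287 bases, whereas CDK6, the longest at 11663 bases, had a value below 0. CKS2 and CKS1B were the shortest, at 616 and 779 bases.

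GAA triplets per kb of transcript, counted in any reading frame, correlated with the log2 fold change with a rho of 0.52 across members and 0.32 across all tested genes. Taken per library, the rho across members was 0.33 in ORC1 IP 1, 0.38 in ORC1 IP 2 and 0.65 in ORC1 IP 3, and without ORC1 IP 2 that of the fold change was 0.56. CDK11A and CDK11B had the most GAA per kb, 33.8 each, while CCND3 had 9.87 and PKMYT1, the lowest, 6.79. The GC content of the transcript gave a rho of -0.18 across members and -0.19 across all tested genes. These are descriptions across genes that share 6 libraries, and genes are not independent replicates.

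A run of 3 GAA triplets (9 bases, searched on the transcript strand only) was present in 5 members, CDC27, CDK14, CDK6, CDK8 and RB1, which is 8.93% of the list beside 13.0% of all tested genes with a transcript. No member had a longer run. The median log2 fold change of these 5 was 0.06, and CDK13, CDK12, CDK11A and CDK11B, with the highest values of the list, held no such run. Among all tested genes the median was 0.61 with such a run and -0.06 without it, and genes with it were longer, at a median of 4269 against 2567 bases.

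**Figure D4:**
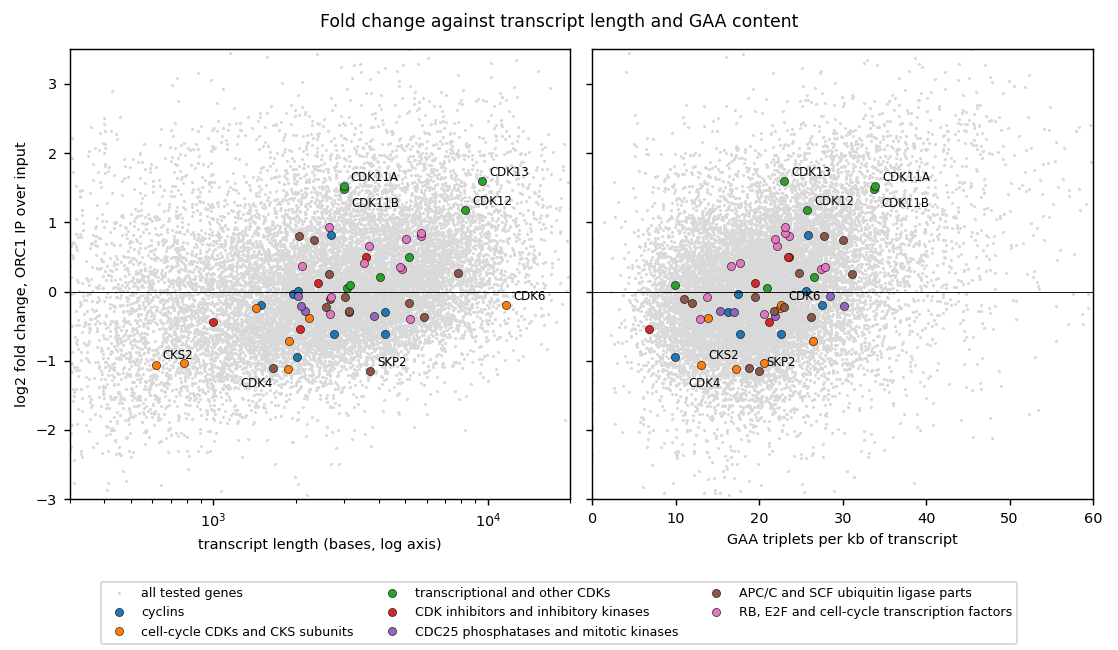
Log2 fold change, ORC1 IP over input (vertical axis), against transcript length in bases (left, log axis) and GAA triplets per kb of transcript (right). Grey points are all tested genes within the axis ranges and coloured points the 56 members by role. Members have a Spearman rho of 0.40 with length and 0.52 with GAA per kb. CDK13 and CDK12 are long and high, CDK6 is long and slightly below 0.

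Another 44 cell-cycle genes in the table, listed by role as further cyclins, CDKs, inhibitors, ligase parts and DREAM subunits, were examined by the same fit. None was called by limma or by edgeR on the recovered reads. With an unadjusted p under 0.05 there were 6 higher and 6 lower genes by limma, 13.6% of these genes each, beside 12.2% and 9.45% of all tested genes. Their median log2 fold change was -0.11. CCNL1 (ENSG00000163660), a cyclin that partners CDK11 in splicing, had the largest value. Its inputs had 1162, 717 and 466 normalised counts and its ORC1 IPs 2859, 3464 and 1299.7, with no overlap. The log2 fold change was 1.68 ± 0.46 (SE, adjusted p = 0.0616, limma). With the replicate number as a block it passed the threshold, with adjusted p-values of 0.0411 in limma and 0.0394 in edgeR. The block takes the input and IP of a number as a pair. For replicates 1 and 2 their deviations from the group means correlated negatively (-0.322 and -0.240). Other pairings were not tested, so the blocked values rest on the pairing that the labels give.

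CDK5 (ENSG00000164885), a CDK known from neurons rather than from the cell cycle, had the most negative value of these genes. It had 381, 372 and 503 normalised counts in inputs, against 124, 159 and 210.2 in ORC1 IPs, again with no overlap, and a log2 fold change of -1.36 ± 0.37 (SE, adjusted p = 0.0586, limma). Of the 7 genes listed as other CDKs and parts of the CDK-activating kinase, 4 had positive and 3 negative values, CDK5 included. CDK9 and the cyclins that partner transcriptional CDKs were looked at after their values were seen. CDK9, itself a transcriptional CDK, had a log2 fold change of -0.58 (adjusted p = 0.366, limma). Every ORC1 IP of CDK9 was below every input. CCNK, the partner of CDK12 and CDK13, had 1096, 786 and 475 in inputs and 6517, 1179 and 1735 in ORC1 IPs, and a log2 fold change of 1.67 ± 0.57 (SE, adjusted p = 0.113, limma). CCNL2, a relative of CCNL1, had 1.23 ± 0.44 (SE, adjusted p = 0.125, limma). Other cyclins of this kind had lower values, with CCNT2 at 0.79, CCNH at 0.67, CCNT1 at -0.07 and CCNC, the partner of CDK8, at -1.004 (adjusted p = 0.175, limma). Without ORC1 IP 2, CCNK was called higher (2.18, adjusted p = 0.00881) and CCNC lower (-1.36, adjusted p = 0.0185).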

How the data were processed

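Native ORC1 RIP-seq libraries of HCT116 nuclei (3 inputs, 3 ORC1 IPs) were analysed from 1 deposited gene table. Per the labels and methods, the authors used Trimmomatic for trimming, STAR for alignment to hg19 (GL contigs removed), featureCounts for gene counts and DESeq2 for the comparison of IP to input. The deposited signal is a count per gene that the authors divided by the size factor of each library. Whole reads were recovered for 100% of values (tolerance 0.001). The table also holds the authors' own log2 fold changes, errors, test scores and p-values, which were not used. Handling of multi-mapping reads and of strand was not given in the sources used here.

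All genes with a mean of at least 10 normalised counts were tested on log2(normalised count + 1) with limma 3.58.1 (intensity trend, no block, 3 against 3) and Benjamini-Hochberg adjustment over 16513 genes, at a threshold of 0.05. A fold change on this scale understates changes of low genes. Alternatives were edgeR 4.0.16 and DESeq2 1.42.0 on recovered reads, a replicate block, other scalings, filters and pseudocounts, limma without the trend, and each library left out. Scripts were tested on simulated data. Intervals and errors cover the spread between 3 libraries, and where separate cultures are not stated this spread may be technical.

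The members and lists were chosen with earlier results of these data known. Transcript length and GAA content were chosen because the study examined gene length and tandem GAA repeats. Values in every library were given for any called member, for the most positive and the most negative value in each role, for CDK1, CCNB1, CCNE1, CDK11A and CDK11B, and for the extremes of the other cell-cycle genes. Library values of any other gene were added after they were seen. Features and coordinates came from GENCODE v44 on GRCh38, matched by Ensembl identifier to 96.3% of the 23013 genes, since no hg19 annotation was used here. Shared sequence is the share of 50-base stretches of a transcript found in transcripts of other genes.

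The labels give same-numbered input and IP to the same RIP replicate. Across genes, the deviations of an input and the same-numbered IP from their group means correlated at -0.322, -0.240 and 0.215 for replicates 1, 2 and 3. The sample titles pair them in the same way as the labels. Other pairings were not tested, so these values do not settle whether the numbering is right, and blocked results rest on it.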

Additional observations from a re-analysis of the deposited data

How the results depend on the processing

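No member was called under any other pseudocount, filter or scaling, by limma without the trend, or by edgeR. DESeq2 on recovered reads called 4 members, 2 higher and 2 lower, 3.57% of the list each, beside 7.67% and 4.35% of the genes in that fit. When each library was left out in turn, 0 to 5 members were called (0 to 3 higher, 0 to 2 lower), and the 5 came without ORC1 IP replicate 2. Members with an unadjusted p under 0.05 numbered 11 with all libraries and 3 to 16 with 1 left out: 3 without input 3, 6 without input 2, 6 without ORC1 IP 1 and 16 without ORC1 IP 2. With the replicate number as a block, limma and edgeR called 0 members, with 8 at an unadjusted p under 0.05 in each. The 11 members of the main test were 19.6% of the list, beside 21.6% of all tested genes. For the other fits the matching share of all genes was not counted. Of the other cell-cycle genes, DESeq2 called 5, limma and edgeR with the replicate block 1 each (CCNL1), and leaving out single libraries 0 to 10. The DESeq2 calls were 9.09% of these genes higher and 2.27% lower, beside 7.67% and 4.35% in that fit. The 10 came without ORC1 IP 2. They were 5 higher and 5 lower, 11.4% of these genes each, beside 11.9% and 6.38% of all tested genes. The blocked fits changed no other call. With scaling by total count the median log2 fold change was -0.19 over all genes and -0.29 over the members, and the members' median lay between -0.22 and 0.14 with 1 library left out. Over 18 alternatives 34 members kept the sign of their fold change (16 positive, 18 negative) and 22 changed it at least once. A filter at a mean of 50 left CDK11A untested. With 3 libraries a group, 48 of 56 members had a 95% interval that reached beyond a log2 fold change of 1 or -1. The causes of these shifts were not tested.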
